A study of Mus musculus with 32 samples.

Results

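The genes described here handle vitamin A at the cell surface and read its signal in the nucleus. They are 8 genes chosen by symbol from 25282 distinct gene rows in 4 count tables: Stra6, Rbp4, Dhrs3, Rara, Rarb, Rarg, Rxra and Rxrb. All 8 have a row in every table. Stra6 and Rbp4 were picked because they were nearly lost in 1 leukaemia group, so their levels there are given as a description with no test. The other members were added as the pathway around them.

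Retinol circulates in blood bound to RBP4, a carrier secreted mainly by the liver, and STRA6 is the membrane receptor that moves retinol from RBP4 into cells. Inside the cell retinol is oxidised to retinaldehyde and then to retinoic acid, and DHRS3 reduces retinaldehyde back to retinol. Retinoic acid binds the receptors RARα, RARβ and RARγ (Rara, Rarb, Rarg), which bind DNA together with a retinoid X receptor (Rxra, Rxrb). In blood formation retinoic acid is known for driving granulocyte maturation, and Rarg for its role in stem cells.

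RNA counts per gene came from 32 mouse libraries in 10 groups. MLL-AF9 leukaemia cells, sorted ex vivo from moribund mice, gave 4 groups of 3: wild type with empty vector (WT+EV), Prdm16 knockout with empty vector (KO+EV), and the knockout with either form of the transcriptional regulator PRDM16 added back, f-PRDM16 in the KO+f group and s-PRDM16 in the KO+s group. Haematopoietic stem cells (HSCs) sorted as Lin-cKit+Sca1+CD48- gave adult bone marrow libraries (4 wild type, 4 labelled PRDM16-KO) and fetal liver libraries of a total knockout (3, with 3 wild type). A further fetal liver set came from a knockout labelled as expressing s-PRDM16 only (f-PRDM16 knockout, 3, with 3 wild type). Library labels begin with VAV, which they do not explain, for the bone marrow and total-knockout fetal sets. Those of the further fetal set begin with a different prefix, which they do not explain either, so the HSC knockouts are not labelled as the same genotype. All 4 leukaemia groups carry MLL-AF9, and the 3 knockout groups share the Prdm16 deletion. The labels give neither the vector's promoter, nor the age of the animals, nor the transduction behind each leukaemia replicate, so a p-value here reflects how these libraries vary, which may be technical.

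Libraries held 16353584 to 23785307 counts in leukaemia and 22490805 to 44952448 in HSCs. Prdm16 held 3 counts over all KO+EV libraries and 40 over WT+EV, the latter 0.733 ± 0.305 CPM (counts scaled to a common library total, SD, n = 3). Add-back gave 273 ± 53.5 CPM in KO+f and 235 ± 58.0 in KO+s, far above the WT+EV level. In bone marrow Prdm16 was 30.1 ± 13.5 CPM in the libraries labelled KO and 31.0 ± 18.7 in wild type (n = 4 each), so its RNA does not bear out that label, and a count over the whole gene cannot test a partial deletion. It was 19.8 against 34.5 CPM in the total-knockout fetal table and 7.82 against 23.0 in the f-PRDM16-knockout table, means of 3. The groups do not overlap in either, yet the log2 changes of -0.77 ± 0.33 and -1.45 ± 0.36 (SE) did not pass in edgeR (adjusted p = 0.9998 and 0.9992). Summed HSC markers, 10 genes, reached 2471 to 4332 CPM in bone marrow, 1153 to 2787 in fetal liver and 141 to 465 in leukaemia. KO+EV replicate 3 stood apart, with granulocyte markers at 50401 CPM where the other leukaemia libraries ranged from 8406 to 24414, and members' log2 changes that moved by over 1.5 times or changed a call without it are also given without it.

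Sequences upstream of the genes whose levels moved most are shown because Stra6 and Rbp4 were low together in KO+s, and Rarg and Dhrs3 high together in KO+f and KO+s. They are the 250 bases before the start site that comes first for each gene in the RefSeq promoter table, build GRCm38.p6, on the gene's strand. Stra6 lies at chr9:58128838-58129087 (plus strand), Rbp4 at chr19:38125322-38125571 (minus), Rarg at chr15:102257523-102257772 (minus) and Dhrs3 at chr4:144892577-144892826 (plus). None of these overlaps an annotated exon in GENCODE M21. Capitals mark AGGTCA, the 6-base core motif of these receptors, on either strand.
Stra6: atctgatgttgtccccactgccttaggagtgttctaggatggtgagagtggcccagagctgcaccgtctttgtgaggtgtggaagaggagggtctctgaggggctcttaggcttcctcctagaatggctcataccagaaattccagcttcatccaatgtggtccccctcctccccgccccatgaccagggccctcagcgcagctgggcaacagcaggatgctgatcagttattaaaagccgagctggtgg
Rbp4: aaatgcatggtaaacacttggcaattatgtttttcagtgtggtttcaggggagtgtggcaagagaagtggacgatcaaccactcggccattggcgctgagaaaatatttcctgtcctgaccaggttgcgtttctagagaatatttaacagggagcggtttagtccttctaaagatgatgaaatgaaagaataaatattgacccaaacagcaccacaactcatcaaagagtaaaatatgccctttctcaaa
Rarg: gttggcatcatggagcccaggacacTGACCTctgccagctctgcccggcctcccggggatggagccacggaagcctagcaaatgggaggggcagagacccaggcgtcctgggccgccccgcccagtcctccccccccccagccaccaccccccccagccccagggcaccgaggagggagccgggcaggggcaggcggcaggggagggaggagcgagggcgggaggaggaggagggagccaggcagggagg
Dhrs3: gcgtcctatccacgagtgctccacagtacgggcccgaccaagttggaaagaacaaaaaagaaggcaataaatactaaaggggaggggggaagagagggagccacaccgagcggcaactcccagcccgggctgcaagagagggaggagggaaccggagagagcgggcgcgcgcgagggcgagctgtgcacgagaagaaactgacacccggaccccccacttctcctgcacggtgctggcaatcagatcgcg
Retinoid receptor pairs are known to bind direct repeats of this core motif, spaced by 1, 2 or 5 bases. Such repeats, built from AGGTCA itself or from its variants AGTTCA as well as GGGTCA and also the motif GGTTCA, were searched on both strands in the 20 promoter windows of the 8 genes, each of 300 bases. A match occurred in 1 window, that of Rarb, where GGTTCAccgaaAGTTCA (capitals mark the core motifs, spaced 5 bases) starts 53 bases before the start site. That repeat spacing occurred in 0.0974% of 32851 promoter windows of the same length, and any of the 3 spacings in 0.588%. Rarg held a lone AGGTCA on the opposite strand in the sequence shown, and Stra6, Rbp4 and Dhrs3 held no AGGTCA in theirs. A match describes the letters only.

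**Figure D1:**
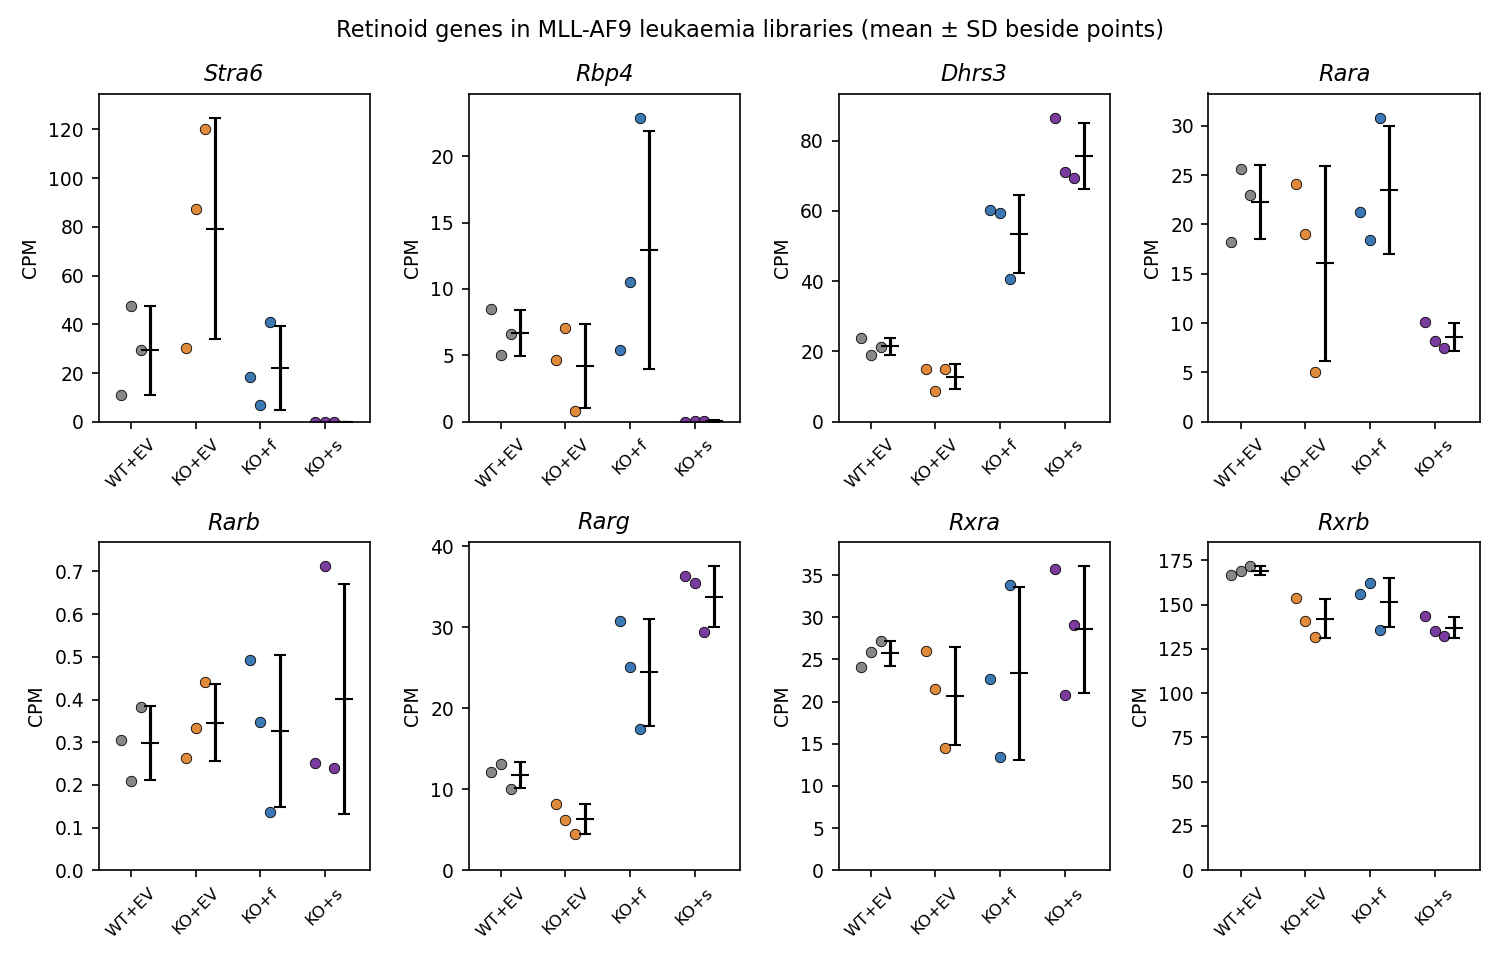
Level in CPM (vertical axes, linear, from 0) of the 8 genes in each leukaemia library (points), with the mean and SD (n = 3) beside them and lower bars ending at 0. Stra6 and Rbp4 lie at the axis in KO+s, at 0 to 2 counts a library, while Rarg and Dhrs3 lie above KO+EV in every KO+f and KO+s library.

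Uptake came first. Stra6, the retinol receptor, was detected in every WT+EV, KO+EV and KO+f library and was nearly absent in KO+s. It measured 10.9, 47.6 and 29.4 CPM in WT+EV and 30.4, 87.2 and 120.3 in KO+EV. In KO+f it was 18.2, 7.04 and 41.0 CPM, and in KO+s 0.0841, 0.0509 and 0. All 3 KO+s libraries lie far below every other leukaemia library, with 2, 1 and 0 counts. These are the values that chose the gene. By counts, KO+EV exceeded KO+s by a ratio of 1727 (95% exact counting interval 590.5 to 8376), KO+f by 484 (165 to 2350) and WT+EV by 649 (222 to 3149). The intervals cover counting error only and are wide, because KO+s held so few counts. That the ratios stayed inside them with any 1 library left out is therefore no support for the loss. Fewer cells making a transcript and less RNA per cell cannot be told apart in bulk libraries.

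Rbp4, the plasma carrier of retinol, followed the same loss from a lower level. WT+EV libraries held 8.50, 5.05 and 6.58 CPM and KO+EV libraries 4.65, 7.09 and 0.833. KO+f libraries held 5.42, 10.5 and 22.9 CPM, and KO+s libraries 0, 0.0509 and 0.0959. The KO+s libraries again sit below all others, with 0, 1 and 2 counts, and KO+EV replicate 3 was the next lowest. The count ratio to KO+s was 90.2 (30.5 to 440) for KO+EV, 283 (96.4 to 1374) for KO+f and 142 (48.2 to 691) for WT+EV. Here too the values are those that chose the gene. The ratios stayed inside these wide intervals with any 1 library left out, which again is no support for the loss.

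Neither uptake gene passed the test in the leukaemia comparisons without KO+s. The loss in KO+s was seen beside these other groups, so they are not wholly apart from the choice. KO+EV against WT+EV gave Stra6 a log2 change of 1.47 ± 0.69 (SE, adjusted p = 0.290) and Rbp4 -0.68 ± 0.65 (adjusted p = 0.633). For KO+f against KO+EV the changes were -1.90 ± 0.70 (adjusted p = 0.101) and 1.63 ± 0.66 (adjusted p = 0.128). Values overlapped between groups in all of these. Without KO+f replicate 3, the library with the most Stra6 in its group, Stra6 was -2.70 with adjusted p = 0.0492. Without KO+EV replicate 3, Stra6 was 0.97 in KO+EV against WT+EV (adjusted p = 0.526), and Rbp4 was -0.21 (adjusted p = 0.883).

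The genes whose levels over the 12 leukaemia libraries were most like Stra6, among 11784 genes, were Gcnt4, Ammecr1, Atp2a2, Amotl1 and Plxna1, with Pearson's r of log2(CPM + 1) of 0.98, 0.97, 0.97, 0.97 and 0.96. These are descriptions over libraries that share groups and depth, and they include the KO+s libraries whose low values chose Stra6 and Rbp4. Gcnt4, a glycosyltransferase gene, averaged 29.1 CPM in WT+EV, 66.1 in KO+EV, 29.4 in KO+f and 0.482 in KO+s. For Rbp4 the closest included Arntl, Urm1, Cdc14b and Fam54a, with r of 0.96, 0.95, 0.95 and 0.94. Arntl, which encodes the clock protein BMAL1, averaged 32.8, 33.4, 38.2 and 20.8 CPM in the same order of groups. These 4 genes stayed well detected in KO+s, with Cdc14b lowest at 7.10 CPM. Ammecr1 and Atp2a2, among the genes most like Stra6, likewise stood at 16.7 and 293.5 CPM in KO+s, while Amotl1 and Plxna1 were at 0.351 and 0.876.

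Because hepatocytes make RBP4, their markers are given beside it. All 13 listed hepatocyte markers were in the leukaemia table, and their summed level was 63.2 to 135 CPM in WT+EV, 60.03 to 174 in KO+EV, 132 to 196 in KO+f and 52.3 to 89.2 in KO+s. Ttr, which encodes the plasma partner of RBP4, was at 0 in all 12 libraries, and Alb did not exceed 0.137 CPM. Nearly all of the sum came from Hnf4a, Trf and Afp. Hnf4a, a nuclear receptor gene singled out after its values were seen, was 104, 92.8 and 40.4 CPM in WT+EV and 80.0, 147 and 3.97 in KO+EV. It was 50.005, 51.4 and 151 CPM in KO+f and 3.15, 2.09 and 8.48 in KO+s. Hnf4a and Rbp4 were thus both low in the KO+s libraries and in KO+EV replicate 3, and both were highest in KO+f replicate 3. A part of Hnf4a in the Rbp4 values was not tested.

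Dhrs3, which returns retinaldehyde to retinol, rose with either PRDM16 form. WT+EV libraries held 23.9, 19.0 and 21.4 CPM and KO+EV libraries 14.99, 8.66 and 14.9. With add-back the values were 60.4, 59.5 and 40.7 CPM in KO+f and 86.5, 70.9 and 69.4 in KO+s. The 4 groups do not overlap and are ordered KO+EV, WT+EV, KO+f, KO+s. Against KO+EV, Dhrs3 rose by a log2 change of 2.02 ± 0.24 in KO+f (adjusted p = 0.000919) and 2.64 ± 0.24 in KO+s (adjusted p = 9.3e-05). Both comparisons share the KO+EV libraries. The remaining steps did not pass: KO+EV against WT+EV was -0.70 ± 0.23 (adjusted p = 0.136), and KO+s against KO+f 0.61 ± 0.22 (adjusted p = 0.134).

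Rarg, the retinoic acid receptor known from stem cells, changed in the same way. It measured 12.1, 13.1 and 10.01 CPM in WT+EV and 8.24, 6.18 and 4.51 in KO+EV. The add-back groups reached 30.7, 25.04 and 17.5 CPM in KO+f and 36.3, 35.5 and 29.4 in KO+s. Every add-back library exceeds every empty-vector library, and only KO+f and KO+s overlap. Rarg rose by 1.94 ± 0.24 in KO+f (adjusted p = 0.00150) and by 2.52 ± 0.25 in KO+s (adjusted p = 0.000102), both against KO+EV. Left out in turn, no single library ended these calls for Rarg or Dhrs3, KO+EV replicate 3 included. KO+s against KO+f was 0.58 ± 0.23 for Rarg (adjusted p = 0.165). KO+EV against WT+EV gave -0.88 ± 0.24 with groups that do not overlap, and adjusted p = 0.0820 in edgeR but 0.0165 in DESeq2.

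Rara, the receptor best known from promyelocytic leukaemia and granulocyte maturation, was lowest in KO+s. Its levels were 18.2, 25.6 and 23.0 CPM in WT+EV and 24.1, 19.1 and 4.998 in KO+EV. KO+f held 21.2, 18.4 and 30.8 CPM, and KO+s 10.1, 8.19 and 7.43. KO+s lies below every other leukaemia library except KO+EV replicate 3. The KO+s change was -0.78 ± 0.42 against KO+EV (adjusted p = 0.171) and -1.20 without that library (adjusted p = 0.00508). Against KO+f, where groups do not overlap, it was -1.33 ± 0.42 (adjusted p = 0.0900), with 0.0205 in DESeq2 and 0.0231 in an edgeR fit of those groups alone. KO+EV against WT+EV (-0.48, adjusted p = 0.583) and KO+f against KO+EV (0.55, adjusted p = 0.402) did not pass. Without KO+EV replicate 3 they were -0.069 (adjusted p = 0.923) and 0.14 (adjusted p = 0.761).

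Per kilobase of exon the balance between the receptors differed by group. In WT+EV, Rara stood at 5.10 ± 0.859 CPM per kilobase and Rarg at 2.76 ± 0.372. In KO+s, Rarg stood at 7.92 ± 0.884 and Rara at 1.97 ± 0.319. KO+f held near-equal levels, 5.73 ± 1.56 for Rarg and 5.38 ± 1.49 for Rara. Rxrb was the highest of the receptors in all 4 leukaemia groups, at 34.5 to 42.6 CPM per kilobase, and Rxra stood at 3.78 to 5.23. No test was made between genes.

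Rarb, itself a known target of retinoic acid, was barely detected in leukaemia. It had 3 to 14 counts a library, averaged 0.299 to 0.401 CPM per group, and did not pass the filter on low counts. Its exons overlap those of the antisense gene Top2b over 1793 bases, 34.1% of its exon length in GENCODE M21, and the sources used here do not say whether counting used strand. Top2b averaged 269 to 326 CPM in the same groups. The other 7 members share no exon sequence with another annotated gene.

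The retinoid X receptors showed the smallest changes. Rxra ranged from 13.5 to 35.7 CPM over the 12 libraries, all 4 groups overlapping, with log2 changes of -0.31, 0.16, 0.57 and 0.41 in the 4 comparisons and adjusted p from 0.174 to 0.761. Without KO+EV replicate 3 the change was -0.14 in KO+EV against WT+EV and -0.0024 in KO+f against KO+EV, and it did not pass in either. Rxrb measured 166.5, 169.1 and 171.5 CPM in WT+EV, and 131.7 to 162.0 in the other 9 libraries. WT+EV lies above KO+EV without overlap, yet the change of -0.23 ± 0.10 did not pass (adjusted p = 0.245). The 95% interval for Rxrb in KO+s against KO+EV was -0.18 to 0.25, around a change of 0.036 that was 0.023 without KO+EV replicate 3 and turns to -0.05 when libraries are scaled by totals alone.

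**Figure D2:**
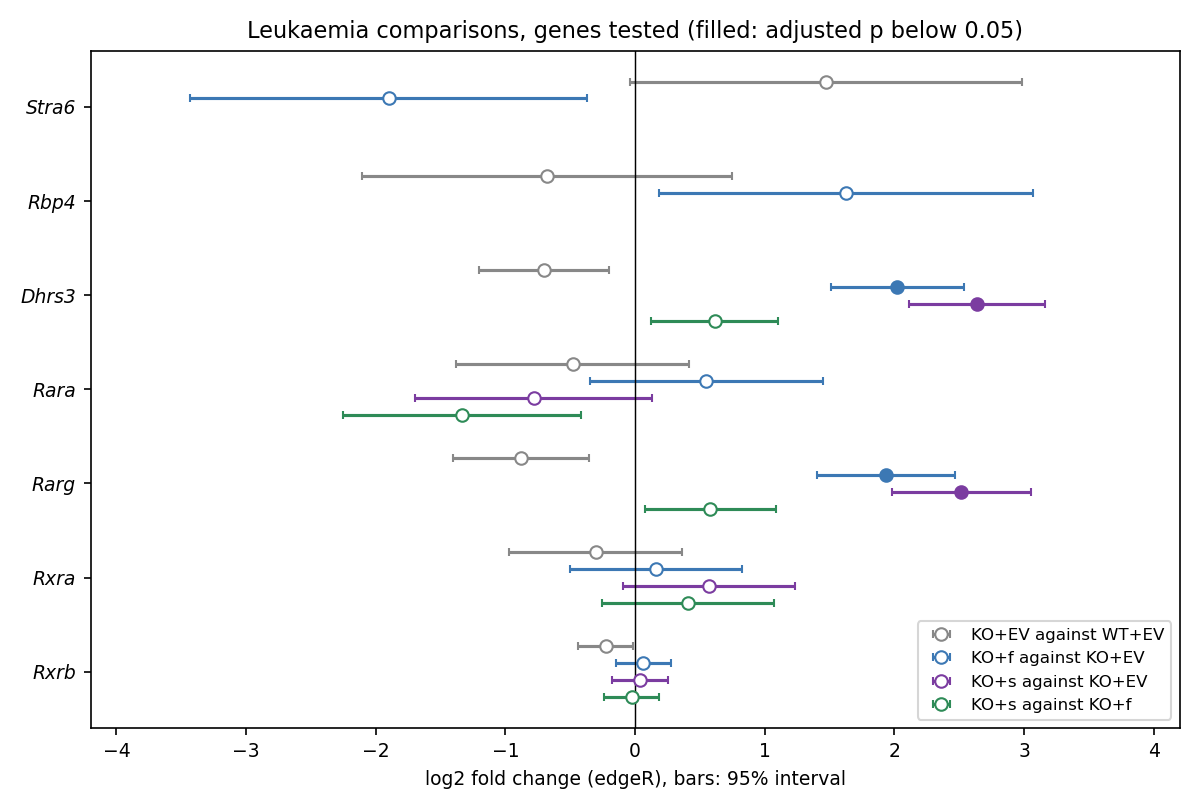
Log2 fold change from edgeR (horizontal axis) with its 95% interval for the 7 members tested in leukaemia, coloured by comparison and filled where adjusted p is below 0.05. Only Rarg and Dhrs3 in KO+f and KO+s against KO+EV are filled, at 1.94 to 2.64, and Stra6 and Rbp4 are not drawn where KO+s was compared.

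As a count, 0 of 7 members tested passed in KO+EV against WT+EV in edgeR, where 2.1% of all 12958 genes did (0.903% higher, 1.2% lower). Of the 7, 3 had an unadjusted p under 0.05, beside 2344 of the 12958 genes. DESeq2 called 1 member, beside 907 genes. In KO+f against KO+EV 2 of 7 rose and 0 fell, beside 6.88% of genes higher, 4.39% lower and 11.3% in either direction. In KO+s against KO+EV 2 of the 5 tested members rose and 0 fell, beside 15.9% higher, 16.6% lower and 32.4% in either direction, so the share of members is near that of all genes in either direction. Of all genes 2054 rose and 2146 fell there, against 1694 and 2710 when libraries were scaled by totals alone. In KO+s against KO+f edgeR called 0 of 5, beside 3.81% of genes (2.05% higher, 1.76% lower). Of the 5, 3 had an unadjusted p under 0.05, beside 2920 of the 12958 genes. DESeq2 called 1 member, beside 1406 genes. The genes that edgeR called in that comparison were 266 higher and 228 lower, or 220 and 510 by totals alone. Scaling by totals moved the median of all genes from -0.02 to -0.14. The members' median log2 changes were -0.48, 0.55, 0.57 and 0.41, in the order given, where the medians of all genes were 0.00, -0.01, -0.01 and -0.02.

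Granulocyte markers, 10 genes, were measured beside these results because retinoid receptors act in that lineage. Their summed level was 8406 to 15953 CPM in WT+EV, 10226 to 50401 in KO+EV, 10825 to 15462 in KO+f and 22009 to 24414 in KO+s. The sum in KO+s thus lies above KO+f without overlap, and MLL-AF9 leukaemia markers, 7 genes, likewise summed to 2410 to 2759 CPM in KO+s and 1186 to 2115 in the other leukaemia libraries. The part of either list in the Rarg, Dhrs3 and Rara values was not tested.

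Other genes of the pathway came from 5 lists of binding proteins, metabolic enzymes, response genes, RXR partners and coregulators, which were chosen with earlier results of these data known. Of 46 such genes tested in leukaemia, 4 rose and 0 fell in KO+f against KO+EV, and 10 rose and 7 fell in KO+s against KO+EV. Over all genes 6.88% rose and 4.39% fell in the former, and 15.9% and 16.6% in the latter. In KO+EV against WT+EV 0 rose and 1 fell, where 2.1% of all genes were called. KO+s against KO+f gave 0 calls in edgeR. Of the 46, 10 had an unadjusted p under 0.05, beside 2920 of all 12958 genes. DESeq2 called 3 of them, beside 1406 genes.

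Of 15 coregulators tested, 2 rose in KO+f (median 0.17), and 2 rose and 1 fell in KO+s (median also 0.17), beside 11.3% and 32.4% of all genes called. Nrip1 changed most among them. It encodes RIP140, a corepressor recruited by liganded nuclear receptors and itself a known retinoic acid target. Its level was 0.630 ± 0.508 CPM in KO+EV, 10.1 ± 5.18 in KO+f and 6.38 ± 3.15 in KO+s, with changes of 3.98 ± 0.65 (adjusted p = 0.00518) and 3.44 ± 0.64 (adjusted p = 0.00249). Prmt1, an arginine methyltransferase coactivator, fell by 0.62 on the log2 scale in KO+s (adjusted p = 0.00815). Ncoa3, a histone acetyltransferase coactivator, rose by 0.73 in KO+f and 0.56 in KO+s. Its call was lost in 4 of 6 fits that left out 1 library in each comparison (highest adjusted p 0.0697 and 0.112).

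Of 10 partners of RXR tested, 2 rose in KO+f (median 0.51), and 4 rose and 1 fell in KO+s (median 0.53), again beside 11.3% and 32.4% of all genes. The orphan receptor gene Nr4a1 went down in KO+EV and up with either form. It stood at 39.3 ± 15.4 CPM in WT+EV, 8.43 ± 3.70 in KO+EV, 32.6 ± 8.33 in KO+f and 29.0 ± 6.93 in KO+s. The changes were -2.22 (adjusted p = 0.0196), 1.95 (adjusted p = 0.00892) and 1.89 (adjusted p = 0.00307), for KO+EV against WT+EV and then KO+f and KO+s against KO+EV. The first call was lost without WT+EV replicate 3 (0.0547), without KO+EV replicate 2 (0.0818) and in a fit of those groups alone (0.101). Nr1i2, the xenobiotic receptor PXR, averaged 3.97 ± 2.16 CPM in KO+EV and held 5 counts in all over KO+s (-5.46 ± 1.07, adjusted p = 0.00320). Ppard, a fatty acid sensor, rose by 0.86 in KO+s (adjusted p = 0.00823). In KO+f it rose by 0.76 (adjusted p = 0.0366), which did not hold in 5 of 6 fits without 1 library (to 0.120). Nr4a2 (1.72) and Nr1h2 (0.46), the latter encoding LXRβ, also rose in KO+s and lost the call in 4 and 3 of 6 such fits.

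Of 12 enzymes tested in KO+s against KO+EV, 4 fell and 1 rose, with a median log2 change of -0.26 over the 12, where 16.6% of all genes fell and 15.9% rose. Cyp26b1, which degrades retinoic acid, was 0.950 ± 0.303 CPM in KO+EV and 0.153 ± 0.0572 in KO+s (-2.50 ± 0.59, adjusted p = 0.00815). That KO+s mean is near the level of 3 counts a library, 0.126 to 0.153 CPM there. Aldh1a7, an aldehyde dehydrogenase, was 5.44 ± 5.35 against 0.191 ± 0.130 CPM (-4.68 ± 1.19, adjusted p = 0.0123, and 0.0557 without KO+s replicate 1). The retinol dehydrogenases Rdh11 (-0.62) and Rdh13 (-0.68) fell, each losing the call in 4 of 6 fits without 1 library. The lipase gene Lpl rose by 2.32 and lost it in 4 of 6. Of 3 binding proteins or carriers tested (median 1.42), 1 passed, 1300002K09Rik, an older symbol of the gene for RBPR2, a second RBP4 receptor related to STRA6. It rose by 1.61 ± 0.54 in KO+s (0.506 to 1.46 CPM, adjusted p = 0.0396) and kept the call only in the fit without KO+EV replicate 1.

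Response genes other than members went both ways in KO+s: Nrip1, Cebpe (1.15) and Itga4 (0.64) rose, and Cyp26b1 and Cd38 (-3.15) fell, of 9 tested with a median of -0.18, where 32.4% of all genes were called, in near-equal numbers each way. Cebpe, needed for late granulocyte maturation, averaged 146 CPM in WT+EV, 61.2 in KO+EV, 79.0 in KO+f and 127 in KO+s. Cd38, a surface enzyme induced by retinoic acid in myeloid cells, averaged 10.4 CPM in KO+EV and 1.06 in KO+s. The calls for Cebpe, Itga4 and Cd38 were lost in 4, 5 and 5 of 6 fits without 1 library. In all, 6 of 17 listed calls in KO+s and 2 of 4 in KO+f passed in each such fit.

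**Figure D3:**
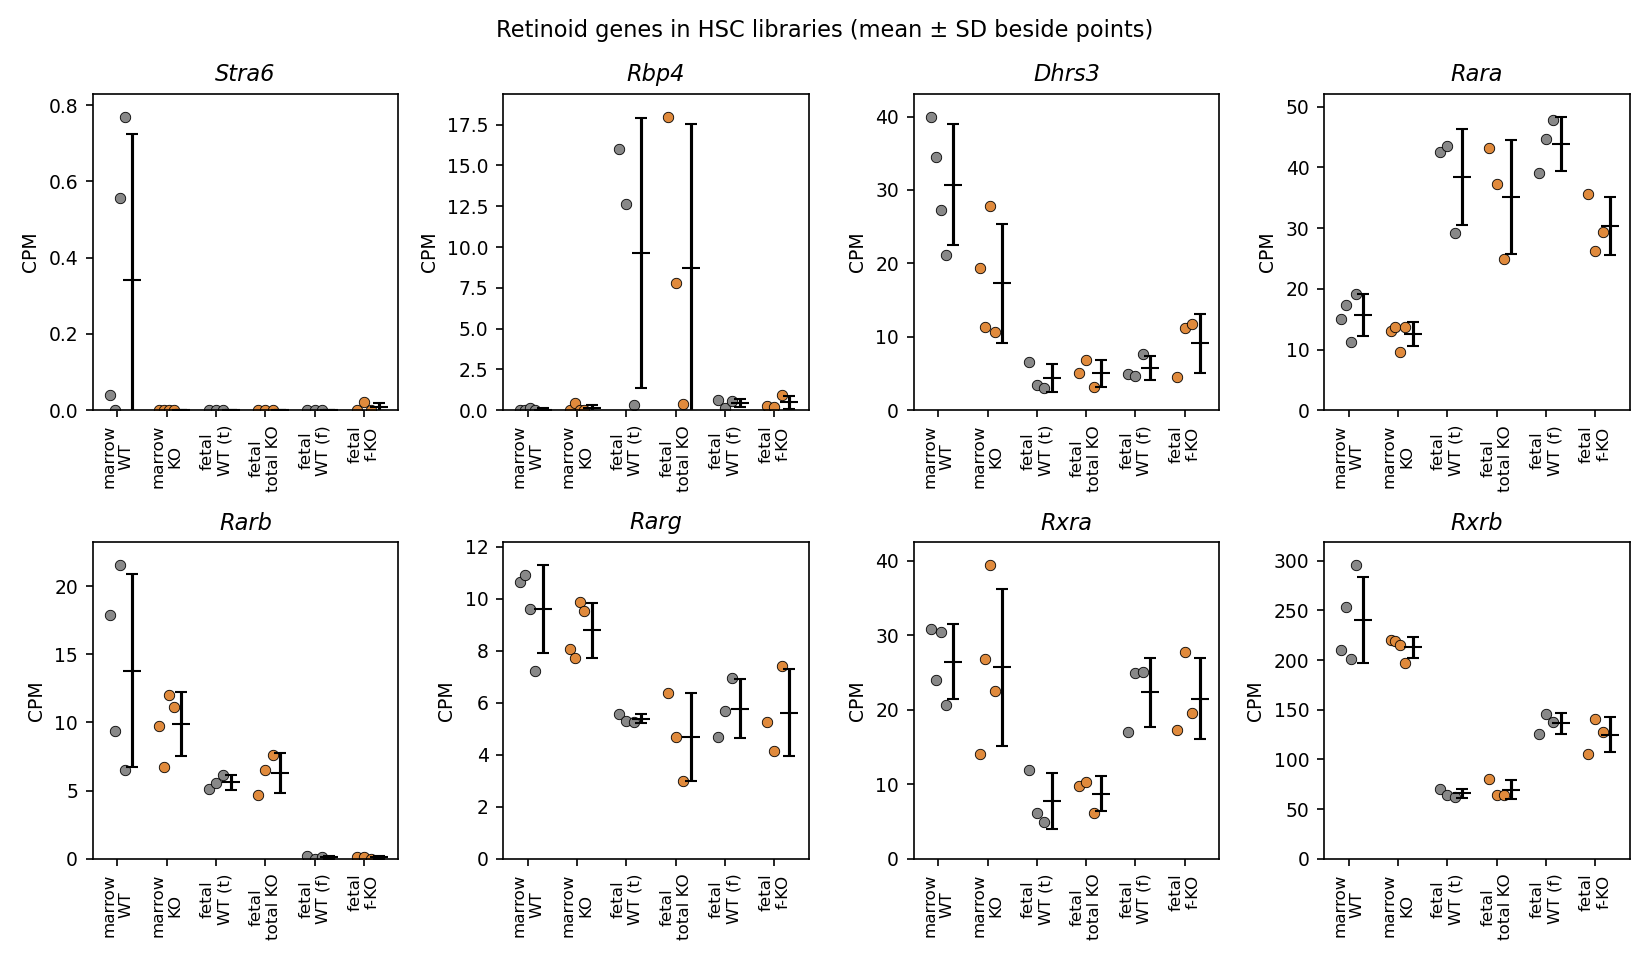
Level in CPM (vertical axes, linear, from 0) of the 8 genes in each HSC library (points; grey wild type, orange knockout), with the mean and SD beside them (n = 4 in bone marrow, n = 3 in fetal liver; t marks the total-knockout table and f the f-PRDM16-knockout table) and lower bars ending at 0. Stra6 stays below 1 CPM throughout, and knockout and wild-type libraries overlap except for Rara in the f-PRDM16-knockout table.

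In HSCs no member passed in any of the 3 knockout comparisons. edgeR called 0 members and 0% of genes in each: bone marrow, total knockout and f-PRDM16 knockout. Prdm16 itself is thus among the genes not called in these fits. These fits leave out a possible pairing of the fetal libraries, which is read from correlations and not stated in the labels. With the replicate number as block edgeR called 176 genes in the total knockout (82 higher, 94 lower) and 0 in the f-PRDM16 knockout. It called 0 members in either. At an unadjusted p under 0.05 there were 1, 0 and 1 members and 1141, 737 and 357 genes, and DESeq2 called 0 members in each and 62, 71 and 1 genes. Members that passed the filter on low counts numbered 6, 7 and 6 of 8, with median log2 changes of -0.25, 0.12 and 0.047, beside -0.031, -0.00061 and -0.0074 over all genes. Of the listed pathway genes edgeR called 0 of 46, 0 of 52 and 0 of 45, with 4, 2 and 2 at an unadjusted p under 0.05 and 0 in DESeq2.

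Stra6 was at the edge of detection. Wild-type bone marrow libraries held 1, 0, 14 and 20 counts (up to 0.769 CPM) and the 4 libraries labelled KO held 0, which allows up to 0.108 to 0.133 CPM a library at 3 counts. The fetal tables held 0 counts in 11 of 12 libraries and 1 in f-PRDM16-knockout replicate 2. Both bone marrow groups overlap, and the gene was too low to test.

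Dhrs3 in bone marrow was 39.9, 34.5, 27.3 and 21.2 CPM in wild type and 19.4, 11.3, 27.8 and 10.6 in the libraries labelled KO. The groups overlap through KO replicate 3, and the change of -0.83 ± 0.32 did not pass (adjusted p = 0.540). In the fetal tables Dhrs3 was lower in level, 3.01 to 6.79 CPM in the total-knockout table and 4.50 to 11.7 in the other, and its change in the f-PRDM16 knockout was 0.76 ± 0.43 (adjusted p = 0.999).

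Rara was 39.1, 44.6 and 47.9 CPM in wild type and 35.6, 26.3 and 29.4 in the f-PRDM16 knockout. These groups do not overlap, and the change of -0.44 ± 0.17 did not pass (adjusted p = 0.999). Granulocyte markers summed to 3363 to 20487 CPM in those wild-type libraries and 7471 to 45477 in the knockout, and their part in the Rara values was not tested. In the total knockout Rara changed by -0.10 and in bone marrow by -0.33, both with overlapping groups.

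Rarb, close to absent in leukaemia, was measurable in bone marrow. Wild type held 17.9, 9.34, 21.5 and 6.50 CPM and the libraries labelled KO 9.71, 6.71, 12.05 and 11.1 (-0.47 ± 0.37, adjusted p = 0.705). In the total-knockout table it was 5.09, 5.57 and 6.14 CPM in wild type against 4.70, 6.48 and 7.61. In the f-PRDM16-knockout table it did not exceed 0.194 CPM, although both tables hold fetal liver HSCs. Top2b, its antisense neighbour, averaged 315 and 285 CPM in wild type and knockout of that table, and 258 and 219 in the total-knockout table. Tables were counted and normalised separately, so levels across them stand side by side with no test.

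Rarg, Rxra and Rxrb moved little within a table, with log2 changes from -0.18 to 0.22. Rarg was 7.23 to 10.9 CPM in bone marrow and 2.99 to 7.43 in fetal liver, all below its level in KO+f and KO+s. Rxrb was the most abundant receptor transcript per kilobase in every HSC group, from 16.6 CPM per kilobase in wild type of the total-knockout table to 60.5 in wild-type bone marrow. Second place went to Rxra in bone marrow (4.85 in wild type) and to Rara in both fetal wild types (8.80 and 10.05).

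**Figure D4:**
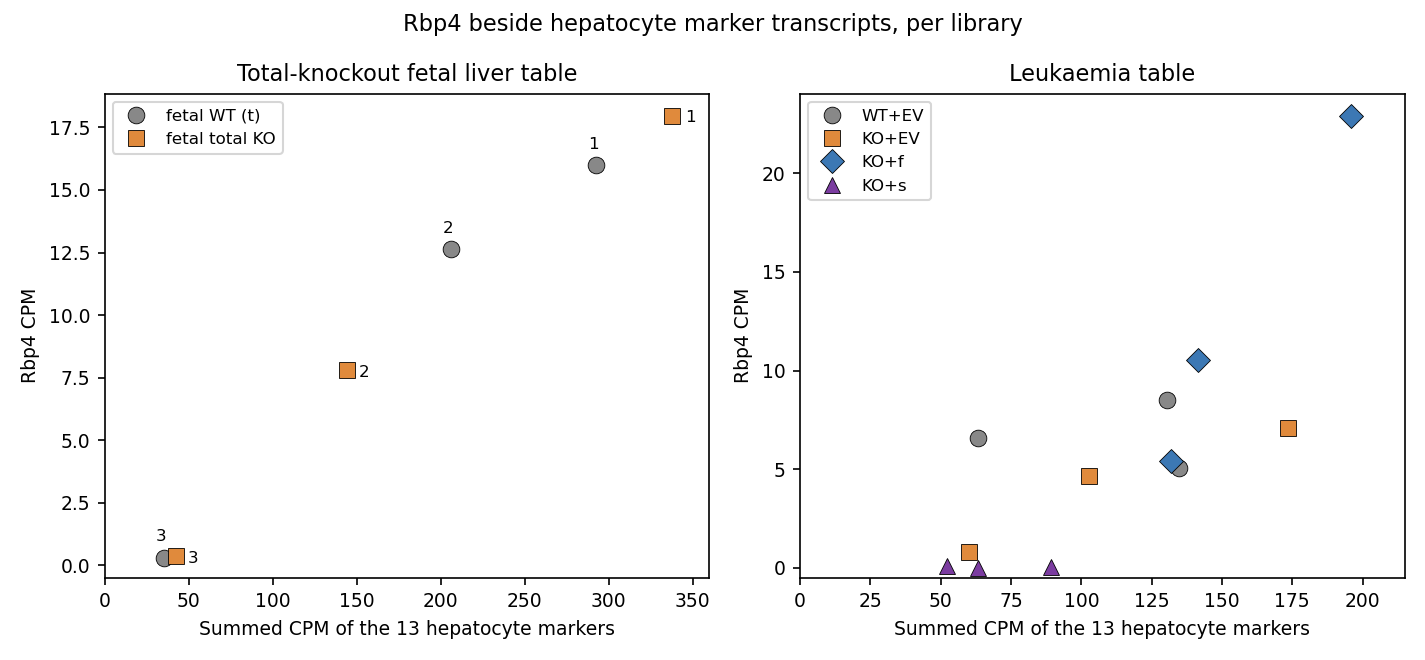
Rbp4 CPM (vertical axis) against the summed CPM of the 13 hepatocyte markers (horizontal axis), 1 point per library, in the total-knockout fetal table (left, numbers give the replicate) and in leukaemia (right). On the left Rbp4 and the marker sum fall together from replicates 1 and 2 to replicate 3 in both genotypes, and on the right the KO+s libraries lie at the Rbp4 floor with marker sums of 52.3 to 89.2 CPM.

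Rbp4 in the total-knockout fetal table followed the replicate number rather than the genotype. Wild type held 16.0, 12.6 and 0.301 CPM and the knockout 17.97, 7.79 and 0.361. Replicates 3 of both genotypes are low, and the groups overlap. The change was -0.13 ± 1.46 (adjusted p = 1.00), and -0.17 with the replicate number as block (adjusted p = 0.811). The hepatocyte markers, all 13 present, summed to 293, 206 and 35.0 CPM in wild type and 338, 144 and 42.3 in the knockout. Alb was 40.0, 22.5 and 0.0602 CPM in wild type and 37.4, 13.7 and 0.0984 in the knockout, and Fgb was 0 in both replicates 3. Rbp4, the marker sum, Alb and Fgb are thus high and low in the same libraries. Hnf4a, also among the 13, was not lower in replicates 3, at 6.25, 5.93 and 6.59 CPM in wild type and 9.37, 5.88 and 10.9 in the knockout. The part of the markers in the Rbp4 values was not tested. In the f-PRDM16-knockout table, where Rbp4 was 0.135 to 0.965 CPM, the highest library (knockout replicate 3) also had the most Alb, 1.54 CPM.

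Group means are ordered here with no test, because leukaemia and HSC libraries were prepared differently. Many neighbouring groups lie within their SDs. Rbp4 was highest in KO+f (12.9 ± 8.98 CPM), within the spread of the next group. Stra6 was highest in KO+EV (79.3 ± 45.5 CPM), then WT+EV (29.3 ± 18.3) and KO+f (22.1 ± 17.3), neighbours that do not differ beyond their SDs, and all others averaged below 0.4 CPM. Rarg and Dhrs3 were highest in KO+s, then KO+f; the Rarg means of these groups, 33.8 ± 3.76 and 24.4 ± 6.65 CPM, lie within their spread. Rara was highest in wild type of the f-PRDM16-knockout table (43.9 ± 4.43 CPM), within the spread of the next group, and lowest in KO+s (8.58 ± 1.39). Rarb and Rxrb had their highest means in wild-type bone marrow (13.8 ± 7.06 and 240.4 ± 43.2 CPM), each within the spread of the libraries labelled KO (9.90 ± 2.33 and 213 ± 10.7). Rxra did not differ beyond its spread between neighbours from KO+s (28.6 ± 7.48) down to KO+EV (20.7 ± 5.83).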

How the data were processed

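RNA was counted per gene in 32 libraries, 12 of leukaemia and 20 of HSCs. Per the labels, poly-A TruSeq libraries were made from leukaemia RNA, and HSC RNA was first amplified with a SMARTer kit for low input. The authors deposited raw counts in 4 tables. The submitters' processing notes name bcl2fastq 2.17, TopHat, DESeq and build mm9; counting tool, annotation and strand are not given in the sources used here. Spike-in entries (92 in each of 2 tables) were dropped, every column was matched (0 unmatched), and all 124 pairs within tables differed beyond counting noise (chi-square over its degrees of freedom at least 11.6).

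CPM is the count over the library total. The quasi-likelihood test of edgeR 4.0.16 (R 4.3.3), with robust fitting, TMM scaling and the filterByExpr filter, was run on all leukaemia libraries together and on each HSC table alone, with Benjamini-Hochberg adjustment over all genes (12958, 13495, 15588 and 13631 in leukaemia, bone marrow, total-knockout and f-PRDM16-knockout tables) and a threshold of 0.05. Adjusted p-values are from that test unless DESeq2 1.42.0 is named. The edgeR test was also run on simulated counts that gave every gene the same spread, so that run does not gauge its power in these tables. The error after ± is the SE for log2 changes and the SD for CPM. Alternatives were RLE or total scaling, no filter, DESeq2, a replicate block, fits of the compared groups alone and leaving out each library. Members and lists were chosen with earlier results of these data known. All members were named, with Prdm16, up to 4 passing genes per list and direction, and the 5 most alike genes for Stra6 and Rbp4 (Gm-numbered and Rik names left out), except that 1 gene alike to Rbp4 is not reported here. Promoter sequences (8 of 8 members matched) are RefSeq's in GRCm38.p6, and exon lengths are GENCODE M21's; no mm9 genome was used here.

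Replicate numbers are in the labels, without a statement of pairing. Deviations of same-number libraries from group means correlated at 0.54, 0.31 and 0.71 in the total-knockout table and 0.69, 0.44 and 0.67 in the f-PRDM16-knockout table, which meets the rule for pairing (every pair above 0.1). In the total-knockout table, however, knockout replicate 2 correlated best with wild-type replicate 1, not with its own number. The fits reported leave the block out, and blocked values are given where they change a count. In bone marrow and leukaemia some correlations fell below 0.1, down to -0.20.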

Additional observations from a re-analysis of the deposited data

Results flagged for a closer look

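Rbp4 in bone marrow HSCs was at 0 in all but 1 library of each group. Wild-type replicate 3 held 4 counts, 0.159 CPM, and the library labelled KO replicate 2 held 13 counts, 0.467 CPM, each the only library of its group with a count. With 3 libraries at 0, any count in the fourth passes Dixon's limit, so the usual chance rate of about 1 in 20 groups does not apply, and the gene was too low to compare the groups.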

How the results depend on the processing

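Of 509 alternative values of members' log2 changes, 476 kept direction and side of the threshold, 0 lost a call, 6 gained one and 27 changed sign, none of these called. With libraries scaled by totals alone, Rxrb turned to -0.053 in KO+s against KO+EV, and Rarg to -0.040 and Rxra to -0.056 in the f-PRDM16 knockout. With 1 library left out, signs turned within these ranges: in the total knockout Dhrs3 -0.026 to 0.65, Rara -0.27 to 0.090, Rarg -0.44 to 0.063, Rbp4 -1.22 to 0.45 and Rxra -0.025 to 0.68. In the f-PRDM16 knockout they were Rarg -0.21 to 0.26, Rbp4 -0.84 to 0.59, Rxra -0.15 to 0.16 and Rxrb -0.10 to 0.059. Rxra was -0.31 to 0.16 in bone marrow and -0.20 to 0.46 in KO+f against KO+EV, and Rxrb -0.10 to 0.021 in KO+s against KO+f. The cause was not tested.

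DESeq2 called 1 member in KO+EV against WT+EV and 1 in KO+s against KO+f, where the fit of those groups alone also called 1. Over all genes it called 907, 2267 and 1406 in KO+EV against WT+EV, KO+f against KO+EV and KO+s against KO+f, where edgeR called 272, 1461 and 494, and 62, 71 and 1 in the HSC tables where edgeR called 0. Fits of the compared groups alone called 1 and 392 genes in the first of these and the second. With 1 library left out, edgeR called 26 to 425, 559 to 1533, 2732 to 3821 (4200 with all, KO+s against KO+EV) and 37 to 388 genes in leukaemia, and 0 to 3 in bone marrow. Members called ranged from 2 to 3 in KO+f and in KO+s against KO+EV.

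With the replicate number as block, 176 genes passed in the total knockout (0 without), and 1 member, Rarg (-0.91, adjusted p = 0.0424), in KO+EV against WT+EV, where numbers do not pair the libraries. The block changed no other member's call.

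Depth limits Stra6 in KO+s and in HSCs, Rbp4 in KO+s and in bone marrow HSCs, and Rarb in leukaemia, to at most 20 counts a library.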

Other observations

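Levels of some retinoid pathway genes are given for the leukaemia and HSC tables, which were prepared differently, so the values stand side by side with no test. Nrip1 averaged 59.9 to 247 CPM in HSC groups and at most 10.1 in leukaemia. Ppard ran the other way, 26.4 to 45.1 CPM in leukaemia groups and 1.11 to 7.02 in HSC groups. Crabp1 and Crabp2, which encode cellular retinoic acid binding proteins, averaged at most 0.147 CPM in any group.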
